A study of Mus musculus with 24 samples.

Results

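The 10 genes described here encode enzymes that chemically change foreign and odorous molecules in the nose, together with a marker of the cells that support the sensory neurons. They are the cytochrome P450 genes Cyp2f2, Cyp2g1, Cyp2a5 and Cyp1a2, the reductase gene Por, the monooxygenase gene Fmo2, the glucuronosyltransferase gene Ugt2a1, the carbonyl reductase gene Cbr2, the alcohol dehydrogenase gene Adh7 and the sustentacular marker Ermn. The genes were taken by name, and all 10 were found among the 57010 genes of both count tables and in all 24 libraries. All 10 also passed the filter on low counts in both tables, so none was left out of a test.

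Messenger RNA was sequenced from the olfactory epithelium of wild-type C57BL/6J males aged 8 weeks, with 3 biological replicates in each of 8 groups. Each mouse was kept alone without odor for 4 h and then spent 90 min with 10 µL of liquid odorant on filter paper, or with an empty paper. The labels name 2 batches of 12 libraries, AD and OC, and the counts of each came in a table of its own. The AD groups were acetophenone (a ketone with an aromatic ring), decanal (an aldehyde with a straight chain), a 1:1 mixture of both (the AD mixture) and no odor (the AD control). The OC groups were octanal (an aldehyde like decanal, with a shorter chain), cis-3-hexenol (an unsaturated alcohol), a 1:1 mixture of both (the OC mixture) and no odor (the OC control). All groups share the genotype, the sex, the habituation and the extraction, in which RNA came from a centrifuged, detergent-treated homogenate rather than from whole tissue.

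The olfactory epithelium breaks down many of the chemicals that reach it, and much of this work is done by sustentacular cells, which surround and support the sensory neurons, and by Bowman's glands, which secrete the mucus. In the first step P450 monooxygenases, fed with electrons by the reductase that Por encodes, insert oxygen into the molecule, or reductases and dehydrogenases interconvert its carbonyl and alcohol groups. In the second step transferases attach a polar group, such as the glucuronic acid added by the enzyme of Ugt2a1, so that the product can be cleared from the mucus. Cyp2g1 and Ugt2a1 are known for strong expression in the olfactory mucosa, Cyp2a5 for the oxidation of coumarin and nicotine, Cyp2f2 for the oxidation of naphthalene, and Cyp1a2 for its induction through the aryl hydrocarbon receptor.

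AD libraries held 20604861 to 24802512 counts each and OC libraries 19003768 to 24531349, and no pair of replicates differed as little as sampling noise would give. Mature sensory neuron markers summed to 16929 CPM or more in every library. CPM is the count per 1000000 counts of the library, after scaling by the trimmed mean of M-values (TMM). Some OC control libraries stood apart. OC control replicate 1 held 4479 CPM of 6 red blood cell genes, the highest of the 24 libraries, and replicate 3 held 52359.5 CPM of 14 Bowman's gland genes, against at most 17782 CPM in any other library. For the genes called against the OC controls, values without each of these libraries are given as well.

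Together the 10 genes took 2.16% ± 0.0546 of all counts with acetophenone, 1.97% ± 0.0663 with decanal and 1.91% ± 0.0843 with the AD mixture, against 2.16% ± 0.0363 in the AD controls (SD, n = 3 each). They took 2.19% ± 0.0898 with octanal, 2.03% ± 0.0591 with cis-3-hexenol and 2.10% ± 0.0307 with the OC mixture, against 1.76% ± 0.213 in the OC controls. With decanal, the AD mixture, octanal, cis-3-hexenol and the OC mixture the range of this share of unscaled counts did not overlap that of its own controls. With acetophenone it did. As summed TMM-scaled CPM, decanal and the AD mixture again lay below the AD controls, but every OC exposure overlapped the OC controls. Those controls held 14577 to 20696 CPM, against 20652 to 22947 CPM with octanal, 19635 to 20676.5 CPM with cis-3-hexenol and 20650 to 21259 CPM with the OC mixture. The OC controls held the lowest mean share of the 8 groups, but the tables differ in batch, so no test was made of a level across them.

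Per kilobase of transcript (TPM, transcripts per 1000000, in AD controls), Cbr2 (ENSMUSG00000025150, chromosome 11) was the most abundant of the 10, at 7240.2 ± 234 TPM (SD, n = 3), the 6th of all genes. Cyp2a5 (ENSMUSG00000005547, chromosome 7) followed at 6408 ± 183 TPM, Cyp2f2 (ENSMUSG00000052974, chromosome 7) at 3992 ± 126 TPM, Ugt2a1 (ENSMUSG00000106677, chromosome 5) at 3199.8 ± 53.2 TPM and Cyp2g1 (ENSMUSG00000049685, chromosome 7) at 2624 ± 95.7 TPM, none of them overlapping its neighbour in this order. Por (ENSMUSG00000005514, chromosome 5) at 1033 ± 33.7 TPM and Cyp1a2 (ENSMUSG00000032310, chromosome 9) at 999 ± 38.6 TPM overlapped. Ermn (ENSMUSG00000026830, chromosome 2) at 104 ± 2.23 TPM, Fmo2 (ENSMUSG00000040170, chromosome 1) at 76.6 ± 4.11 TPM and Adh7 (ENSMUSG00000055301, chromosome 3) at 46.6 ± 2.59 TPM were much lower and did not overlap one another. In OC controls the same 7 enzymes led, but Cbr2 and Cyp2a5 overlapped, and Cyp2f2 overlapped both Ugt2a1 and Cyp2g1, which lay apart from each other. Some reads cannot be assigned with certainty: 44.9% of the 31-base words of Cyp2a5 transcripts also occur in Cyp2a4, which held 9.73 to 25.1 CPM, and 68.7% of those of Ugt2a1 occur in Ugt2a2, which held 178 to 455 CPM.

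Cyp2f2, Cyp1a2, Por and Ugt2a1 moved together across the libraries. Cbr2 did not move with them in values without offsets for transcript length and GC content. The sequences just upstream of the start sites are given for all of these genes. Each is the 250 bases before the RefSeq start on the mouse build GRCm38.p6, read on the strand of the gene: Cyp2f2 at chr7:27119705-27119954 (plus strand), Cyp1a2 at chr9:57683656-57683905 (minus), Por at chr5:135688895-135689144 (plus), Ugt2a1 at chr5:87490872-87491121 (minus) and Cbr2 at chr11:120732022-120732271 (minus). Capitals mark matches on either strand to the aryl hydrocarbon receptor element core GCGTG or to the TATA box TATAAA. The antioxidant response element core TGACNNNGC was searched as well.
Cyp2f2: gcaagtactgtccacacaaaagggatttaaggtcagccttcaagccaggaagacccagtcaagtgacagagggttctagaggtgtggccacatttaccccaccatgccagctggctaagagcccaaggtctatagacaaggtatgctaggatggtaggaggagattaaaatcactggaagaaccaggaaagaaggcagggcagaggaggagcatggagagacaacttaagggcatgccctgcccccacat
Cyp1a2: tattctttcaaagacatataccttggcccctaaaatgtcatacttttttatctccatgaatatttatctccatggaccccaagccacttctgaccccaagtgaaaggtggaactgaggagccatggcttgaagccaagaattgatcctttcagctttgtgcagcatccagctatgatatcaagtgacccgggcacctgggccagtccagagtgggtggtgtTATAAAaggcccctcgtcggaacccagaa
Por: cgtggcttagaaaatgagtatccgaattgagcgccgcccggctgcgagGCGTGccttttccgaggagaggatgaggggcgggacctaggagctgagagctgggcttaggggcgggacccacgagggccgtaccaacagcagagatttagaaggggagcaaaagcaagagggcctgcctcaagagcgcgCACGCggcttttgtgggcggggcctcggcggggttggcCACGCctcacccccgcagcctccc
Ugt2a1: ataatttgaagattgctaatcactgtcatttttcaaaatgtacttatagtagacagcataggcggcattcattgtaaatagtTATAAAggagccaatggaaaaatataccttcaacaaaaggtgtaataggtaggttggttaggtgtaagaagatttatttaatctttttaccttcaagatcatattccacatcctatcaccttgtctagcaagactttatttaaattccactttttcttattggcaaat
Cbr2: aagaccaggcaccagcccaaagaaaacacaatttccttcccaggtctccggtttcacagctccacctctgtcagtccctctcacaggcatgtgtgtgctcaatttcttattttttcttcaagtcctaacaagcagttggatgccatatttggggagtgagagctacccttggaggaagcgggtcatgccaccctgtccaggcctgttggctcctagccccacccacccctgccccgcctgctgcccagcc

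A window was found for 9 of the 10 genes, with Cyp2g1 not matched, and Fmo2 had a second start, which makes 10 windows. Por held 3 matches to GCGTG, at 202, 62 and 24 bases before the start, in a window with 65.6% GC. None of the other windows held this motif, which occurs in 28.2% of the 32851 windows of this length. TATAAA stood 29 bases before the start in Cyp1a2 and Cyp2a5, at 168 bases in Ugt2a1 and at 202 bases in Adh7, and 12.4% of all windows hold it. TGACNNNGC was in none of the 10 windows and in 10.2% of all windows. These are matches of letters and say nothing of binding.

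The question put to each table was how the odorants, alone and mixed, change transcript levels relative to no odor. A gene was called changed at an adjusted p under 0.05 in edgeR's quasi-likelihood test with Benjamini-Hochberg adjustment over all genes, and each adjusted p of a gene below is from this test unless another is named. No statement separates fewer cells of a type from less RNA per cell, since these are bulk tissue samples.

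With decanal 5 of the 10 genes fell and 1 rose, in a comparison that called 23.9% of all genes, 12.5% lower and 11.4% higher. The genes that fell were 3 P450 genes, their reductase and the glucuronosyltransferase, to 0.805 to 0.904 of the control level, and Cbr2 rose to 1.14 of it. The median log2 fold change of the 10 genes was -0.17, against 0.0105 over all genes tested. Cyp2f2 stood at 2558, 2751 and 2836 CPM in decanal libraries, against 3202, 3456 and 3457 CPM in AD controls. Every decanal library lay below every control, and the log2 fold change was -0.31 (SE 0.051, adjusted p = 0.000461). Cyp1a2 stood at 665, 715 and 749 CPM with decanal, against 844, 913 and 874 CPM in AD controls, again without overlap. Its log2 fold change was -0.31 (SE 0.067, adjusted p = 0.00377). Por, which passes electrons to all P450s of the endoplasmic reticulum, stood at 957, 1009 and 1069 CPM with decanal, against 1186, 1274 and 1236 CPM in AD controls. No decanal library reached the lowest control, and the log2 fold change was -0.28 (SE 0.053, adjusted p = 0.00129). Ugt2a1, whose enzyme conjugates odorants, stood at 2958, 3214 and 3262 CPM with decanal, against 3717, 3713 and 3732 CPM in AD controls, all within a narrow range. Its log2 fold change was -0.24 (SE 0.039, adjusted p = 0.000425).

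Cyp2g1 fell least of the 5, with 1954, 2061 and 2094 CPM in decanal libraries, against 2123, 2267 and 2366 CPM in AD controls. The groups did not overlap, yet the gap was narrow, and the log2 fold change of -0.15 (SE 0.046, adjusted p = 0.0307) lost its call without AD control replicate 2, AD control replicate 3 or decanal replicate 1 (adjusted p = 0.085, 0.142 and 0.0707) and under upper-quartile scaling (0.128). That scaling calls 2814 genes higher and 1865 lower for decanal, where TMM scaling calls 2223 higher and 2437 lower. Cyp2a5, the most abundant of the 4 P450 genes, had a log2 change of -0.064 (SE 0.048, adjusted p = 0.374), with a 95% confidence interval of -0.17 to 0.038. Fmo2, whose enzyme oxidises nitrogen and sulfur atoms, had 131, 129 and 111 CPM with decanal, against 146, 139.6 and 136 CPM in AD controls, and its log2 fold change of -0.19 (SE 0.069, adjusted p = 0.0571) did not pass. Neither did Ermn at -0.11 (SE 0.046, adjusted p = 0.0979), although its groups did not overlap, nor Adh7 at 0.089 (SE 0.12, adjusted p = 0.651). The groups were apart for 8 of the 10 genes, and for 40.8% of all genes tested.

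Cbr2, the reductase that turns aldehydes and ketones into alcohols, went the other way. It stood at 4064, 4071 and 4311 CPM with decanal, against 3661, 3671 and 3574 CPM in AD controls, and every decanal library lay above every control. The log2 fold change was 0.19 (SE 0.034, adjusted p = 0.000904). With offsets for transcript length and GC content fitted in each library, it was -0.046 (adjusted p = 0.214), and no gene of the 10 was then called higher. Its transcript of 1110 bases is the shortest of the 10, where the others have 1866 to 4066 bases, and it has 56.9% GC. The offsets cover length and GC content together, and the part of each in the value of Cbr2 was not tested.

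**Figure D1:**
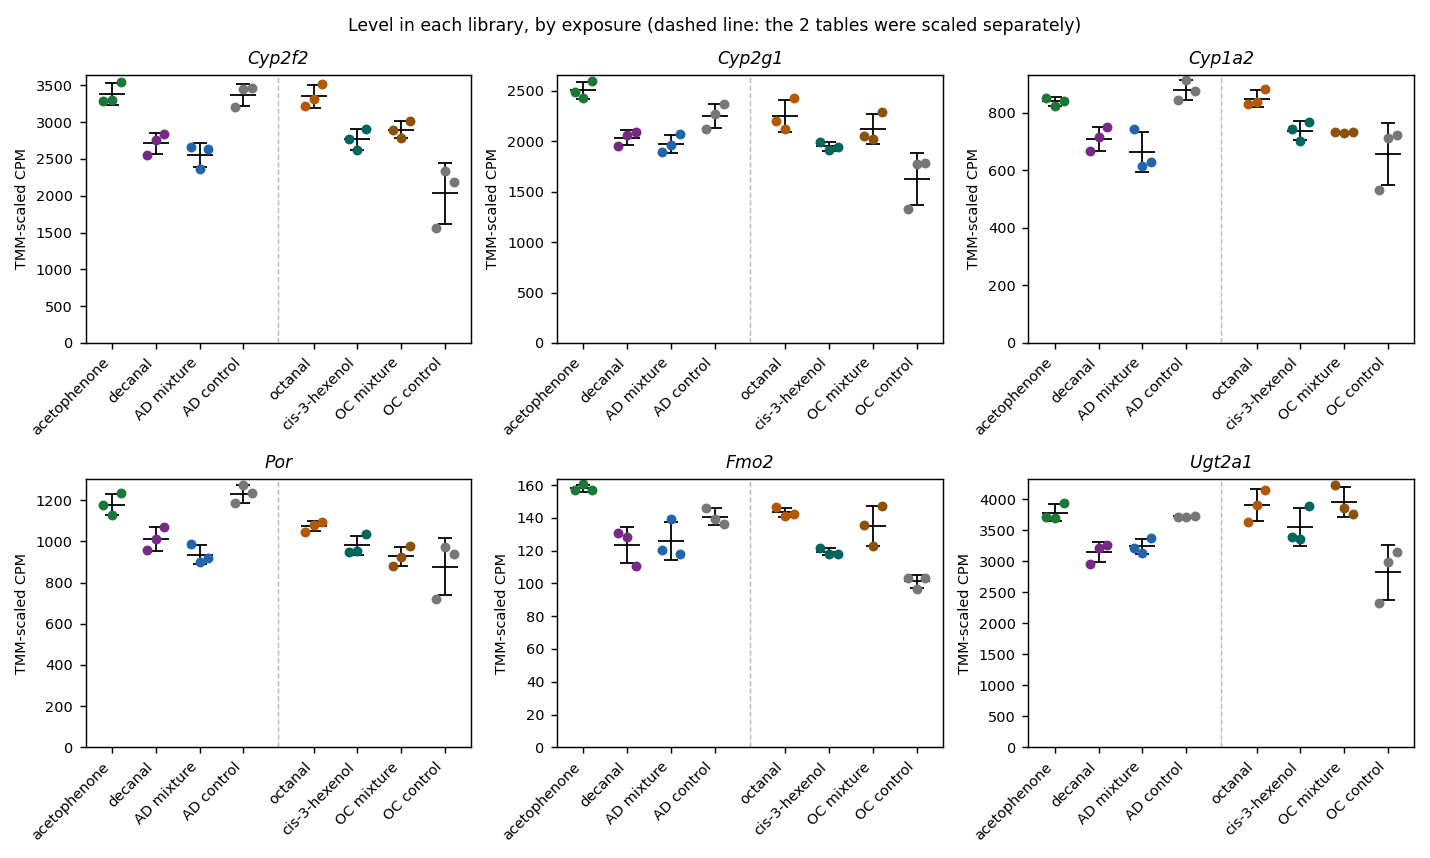
TMM-scaled CPM (y axis, linear, from 0) of 6 genes in each of the 24 libraries, by exposure (x axis). Points are libraries, bars the mean and SD of 3, and the dashed line parts the AD table from the OC table, which were scaled separately. Decanal and AD mixture libraries of Cyp2f2 lie between 2359 and 2836 CPM, under the AD controls at 3202 to 3457 CPM, while the OC exposures lie between 2622 and 3521 CPM, over the OC controls at 1566 to 2333 CPM.

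The AD mixture, which held decanal beside acetophenone in the same total volume, was set against the same AD controls, so its values are not independent of those for decanal. It called 22.3% of all genes (10.6% higher and 11.6% lower), and of the 10 genes 5 were lower and 1 higher, with a median log2 fold change of -0.17 against 0.0068 over all genes. Cyp2f2 stood at 2662, 2359 and 2629 CPM with the mixture, against 3371 ± 147 CPM in AD controls (SD, n = 3), which gave -0.40 (SE 0.051, adjusted p = 5.63e-05) on the log2 scale. Cyp1a2 stood at 741, 615 and 629 CPM, against 877 ± 34.5 CPM in AD controls, which gave -0.41 (SE 0.067, adjusted p = 0.000515) on the log2 scale. These came to 0.756 and 0.755 of the control level, and mixture replicate 1 was the highest of the 3 for both genes. Por stood at 986, 901 and 917 CPM with the mixture, against 1232 ± 43.9 CPM in AD controls, and its log2 fold change was -0.40 (SE 0.053, adjusted p = 9.05e-05). Ugt2a1 had a log2 change of -0.20 (SE 0.039, adjusted p = 0.0018) and Cyp2g1 of -0.19 (SE 0.046, adjusted p = 0.00744).

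Cyp2a5, at 5525, 4857 and 5543 CPM with the AD mixture, against 5549, 5907 and 6061 CPM in AD controls, lay at the edge of the threshold. Its groups did not overlap and its log2 fold change was -0.14 (SE 0.048, adjusted p = 0.0503); it passed with DESeq2 size factors (adjusted p = 0.0414) and with length and GC offsets (0.00805). Cbr2 was higher, with 4138, 3780.5 and 4101 CPM in the mixture, against 3635 ± 53.4 CPM in AD controls, and a log2 change of 0.14 (SE 0.034, adjusted p = 0.00755) that became -0.072 (adjusted p = 0.0533) with the offsets. Fmo2 (-0.16), Ermn (-0.031) and Adh7 (0.078) were not called. The groups were apart for 7 of the 10 genes and for 36.6% of all genes. Upper-quartile scaling calls 2561 genes higher and 1754 lower for the mixture, against 2078 and 2269 with TMM scaling, and it left the counts of the 10 genes at 1 higher and 5 lower.

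Red blood cell, marrow and bone transcripts differed between the same libraries. The 6 red cell genes summed to 2143 to 2578 CPM with decanal and 1798 to 2545 CPM with the AD mixture, against 493 to 650.0 CPM in AD controls, and 6 of 6 were called higher in both comparisons. Of 7 neutrophil and marrow genes, 6 were higher in each comparison, though their sum of 281 to 427 CPM with decanal and 306 to 445 CPM with the AD mixture overlapped the 163 to 611 CPM of the AD controls. The overlap came from AD control replicate 3 at 611 CPM, where replicates 1 and 2 held 189 and 163 CPM. The 6 bone genes summed to 2259 to 2930 CPM with decanal and 2420.4 to 3736.5 CPM with the AD mixture, against 1559 to 1785 CPM in AD controls. No gene of these lists was at 0 in every library of a group. Their part in the values of the 10 genes was not tested.

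Acetophenone alone called 1 gene of 19525, or 0.00512%, and none of the 10. In edgeR 4 of the 10 had an unadjusted p under 0.05, as had 1287 of all genes, and DESeq2's Wald test called 1 of the 10 and 30 of all genes. The 10 genes had a median log2 fold change of 0.079, against 0.0059 over all genes. Ermn, the sustentacular marker, stood at 198, 199 and 192 CPM with acetophenone, against 170.4, 172 and 169.8 CPM in AD controls. These groups lay well apart relative to their spread, and the log2 fold change of 0.20 (SE 0.046, adjusted p = 0.412) was the 1 that DESeq2 called (adjusted p = 0.0117). Cbr2 stood at 4013, 4001 and 3962 CPM with acetophenone, against 3661, 3671 and 3574 CPM in AD controls, with a log2 change of 0.13 (SE 0.034, adjusted p = 0.415). Cyp2g1 had 0.15 (adjusted p = 0.517) and Fmo2 0.17 (adjusted p = 0.682). In these 4 genes every acetophenone library lay above every AD control, which held for 14.5% of all genes in either direction.

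For the other 6 genes the acetophenone and control libraries overlapped. Cyp2f2 had a 95% interval of the log2 fold change of -0.10 to 0.11, Cyp2a5 of -0.11 to 0.088, Cyp1a2 of -0.21 to 0.077, Por of -0.18 to 0.049 and Ugt2a1 of -0.061 to 0.10. The widest of these intervals was that of Cyp1a2. Adh7 was the least precise, with 61, 96.4 and 83.2 CPM with acetophenone, against 75.5, 68.6 and 72.8 CPM in AD controls, and an interval of -0.11 to 0.41.

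**Figure D2:**
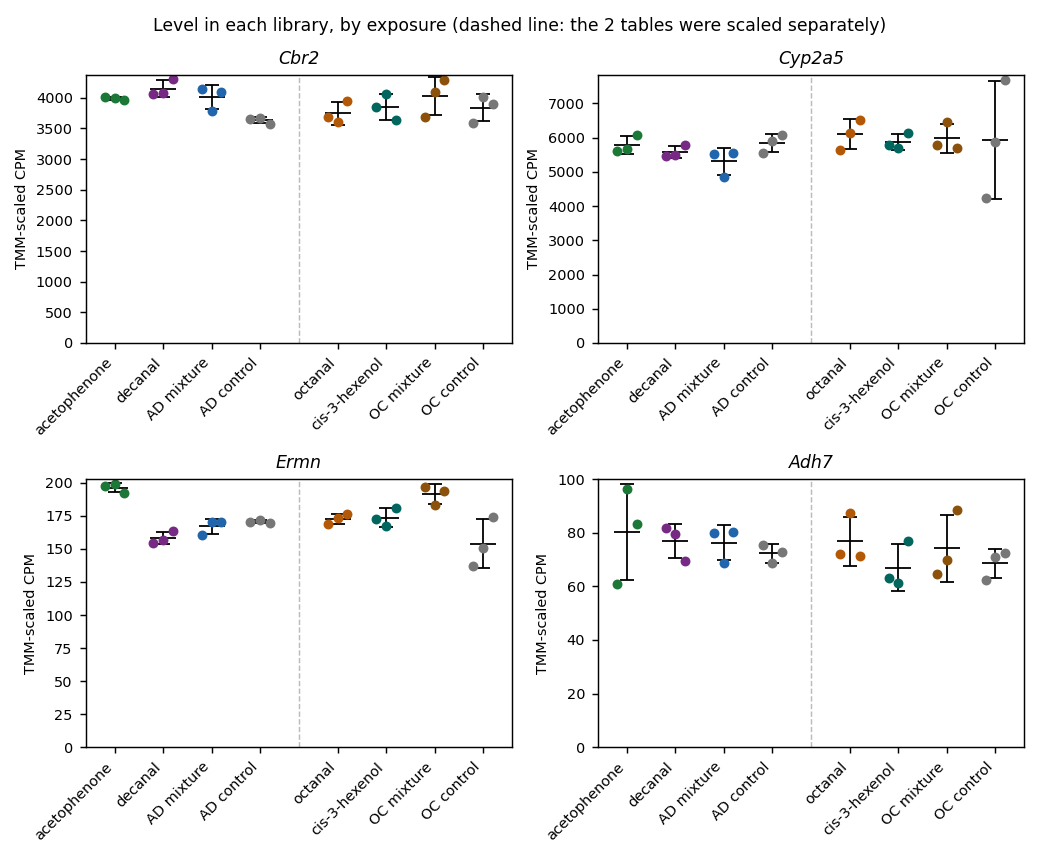
TMM-scaled CPM (y axis, linear, from 0) of Cbr2, Cyp2a5, Ermn and Adh7 in each library, by exposure (x axis), with the mean and SD of 3. The dashed line parts the 2 tables. Acetophenone libraries of Ermn lie at 192 to 199 CPM, over the AD controls at 170 to 172 CPM, and the OC controls of Cyp2a5 spread from 4226 to 7669 CPM.

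With octanal 6 of the 10 genes rose and none fell, in a comparison that called 29.4% of all genes, 14.4% higher and 15.0% lower. The median log2 fold change of the 10 was 0.33, against -0.021 over all genes. The largest change of the 10 was in Cyp2f2, which reached 1.65 times the control level, with 3222, 3307 and 3521 CPM in octanal libraries, against 1566, 2333 and 2193 CPM in OC controls. Every octanal library lay well above every control, and the log2 fold change was 0.72 (SE 0.11, adjusted p = 0.000292). OC control replicate 1 was the lowest of the 3, and without it the log2 fold change was 0.58 (adjusted p = 0.000233). Cyp2g1 stood at 2205, 2126 and 2428 CPM with octanal, against 1325, 1775 and 1781 CPM in OC controls, which gave 0.47 (SE 0.097, adjusted p = 0.00243) on the log2 scale, and 0.36 without OC control replicate 1. Cyp1a2 stood at 829, 836 and 881 CPM with octanal, against 532, 711 and 724 CPM in OC controls. Its log2 fold change was 0.37 (SE 0.096, adjusted p = 0.00906), and 0.26 without OC control replicate 1 (adjusted p = 0.0112).

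Fmo2 stood at 146, 141 and 143 CPM with octanal, against 104, 96.6 and 103 CPM in OC controls. It rose by 0.50 (SE 0.066, adjusted p = 0.000153) on the log2 scale, and by 0.54 without OC control replicate 1. Its range without any 1 library was 0.47 to 0.54. Ugt2a1 stood at 3637, 3901 and 4153 CPM with octanal, against 2317, 2991 and 3142 CPM in OC controls, and rose by 0.47 (SE 0.098, adjusted p = 0.00257). That value was 0.36 without OC control replicate 1 and 0.29 (adjusted p = 0.0188) with length and GC offsets. Por stood at 1045, 1080.2 and 1094 CPM with octanal, against 719, 973 and 941 CPM in OC controls. Its log2 fold change of 0.29 (SE 0.095, adjusted p = 0.0316) was not called without OC control replicate 1 (0.18, adjusted p = 0.0669), octanal replicate 2 or octanal replicate 3 (adjusted p = 0.0644 and 0.0828), or in a fit of the 6 libraries alone (0.0999).

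Without OC control replicate 3 the octanal values were 0.78 for Cyp2f2, 0.54 for Cyp2g1, 0.45 for Cyp1a2, 0.52 for Fmo2, 0.56 for Ugt2a1 and 0.35 for Por, all still called.

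Cyp2a5, Cbr2, Adh7 and Ermn were not called with octanal. The interval of Cyp2a5 was wide, -0.26 to 0.34, with 5643, 6119 and 6528 CPM in octanal libraries, against 4226, 5884 and 7669 CPM in OC controls. Control replicate 3, the library rich in gland transcripts, was the highest of these controls. Cbr2 had a log2 change of -0.034 (SE 0.069, adjusted p = 0.755), and 0.19 (adjusted p = 0.0312) with length and GC offsets, where it was called higher. Ermn had 0.17 (SE 0.078, adjusted p = 0.117), and without OC control replicate 3 it was called at 0.27 (adjusted p = 0.00952). The octanal and control libraries were apart for 6 of the 10 genes, and for 40.4% of all genes.

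cis-3-Hexenol, set against the same OC controls, came with 3 of the 10 genes higher and none lower, where 12.2% of all genes were called, 5.56% higher and 6.65% lower. The median of the 10 was 0.17, against -0.0058 over all genes. Cyp2f2 stood at 2768, 2622 and 2902 CPM with cis-3-hexenol, against 2031 ± 408 CPM in OC controls (SD, n = 3), and rose by 0.44 (SE 0.11, adjusted p = 0.0171) on the log2 scale. Fmo2 stood at 122, 118 and 118 CPM, against 101 ± 4.02 CPM in OC controls, which gave 0.24 (SE 0.066, adjusted p = 0.031) on the log2 scale. Ugt2a1 stood at 3395, 3353 and 3896 CPM, against 2817 ± 439.5 CPM in OC controls, which gave 0.33 (SE 0.098, adjusted p = 0.0384) on the log2 scale. Without OC control replicate 1 the log2 changes were 0.30 for Cyp2f2, 0.26 for Fmo2 and 0.22 for Ugt2a1 (adjusted p = 0.0878), and without OC control replicate 3 they were 0.51, 0.26 and 0.43. With length and GC offsets Fmo2 (0.15, adjusted p = 0.181) and Ugt2a1 (0.14, adjusted p = 0.338) were not called. These calls were not stable: none of the 10 was called without cis-3-hexenol replicate 1 or replicate 3 or in a fit of the 6 libraries alone, 1 was called without replicate 2, 2 without OC control replicate 1, and 5 without OC control replicate 3. Cyp2g1 (0.26, adjusted p = 0.0911) also lay apart from its controls, so that 4 of the 10 did, as did 30.6% of all genes. Cyp1a2 (0.17), Por (0.16), Ermn (0.17), Cbr2 (0.0063), Cyp2a5 (-0.017) and Adh7 (-0.035) were not called.

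The OC mixture, again against the same OC controls, came with 5 of the 10 genes higher and none lower, where 24.2% of all genes were called, 11.5% higher and 12.7% lower. The median of the 10 was 0.24, against -0.0060 over all genes. Ugt2a1 stood at 4230.2, 3859.7 and 3763 CPM with the mixture, against 2317, 2991 and 3142 CPM in OC controls, which gave 0.49 (SE 0.098, adjusted p = 0.00248) on the log2 scale that became 0.23 (adjusted p = 0.0698) with length and GC offsets. Cyp2f2 stood at 2888, 2781 and 3015 CPM, against 2031 ± 408 CPM in OC controls, which gave 0.51 (SE 0.11, adjusted p = 0.00324) on the log2 scale. Fmo2 stood at 136, 123 and 147 CPM, against 101 ± 4.02 CPM in OC controls, which gave 0.42 (SE 0.066, adjusted p = 0.000585) on the log2 scale. All mixture libraries of these genes lay above all controls. Cyp2g1 rose by 0.38 (SE 0.097, adjusted p = 0.01). Ermn stood at 197, 183 and 194 CPM with the mixture, against 137, 151 and 174 CPM in OC controls, and rose by 0.31 (SE 0.078, adjusted p = 0.00841); with length and GC offsets its log2 fold change was 0.035 (adjusted p = 0.803).

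Without OC control replicate 1 the log2 changes with the OC mixture were 0.38 for Ugt2a1, 0.36 for Cyp2f2, 0.44 for Fmo2, 0.26 for Cyp2g1 and 0.25 for Ermn, and without OC control replicate 3 they were 0.58 for Ugt2a1, 0.58 for Cyp2f2, 0.44 for Fmo2, 0.46 for Cyp2g1 and 0.42 for Ermn, all still called.

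Cyp1a2 had nearly equal levels in the 3 OC mixture libraries, 732, 731 and 732 CPM, against 532, 711 and 724 CPM in OC controls. The groups did not overlap, but the log2 fold change of 0.16 (SE 0.096, adjusted p = 0.256) did not pass, and it was 0.038 without OC control replicate 1. Por (0.08), Cbr2 (0.071), Adh7 (0.11) and Cyp2a5 (0.013) were not called, though Cbr2 was called higher with length and GC offsets (0.20, adjusted p = 0.0372). In all, 6 of the 10 genes lay apart from the controls, as did 34.6% of all genes. A fit of the 6 libraries alone called 3 of the 10, with Cyp2g1 and Ermn lost at adjusted p = 0.0594 and 0.0509.

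Blood and bone transcripts were lower in the OC exposures. The 6 red cell genes summed to 746 to 1124 CPM with octanal, 1295 to 1944 CPM with cis-3-hexenol and 846 to 1819 CPM with the OC mixture, against 2161 to 4479 CPM in OC controls, with 6, 4 and 5 of 6 called lower. The 7 neutrophil and marrow genes summed to 152 to 253 CPM, 186 to 278 CPM and 161 to 257 CPM in the same order, against 267 to 428 CPM in OC controls, with 6, 0 and 5 called lower. The 6 bone genes summed to 1291 to 1589.5 CPM, 1885 to 2279 CPM and 1383 to 1661 CPM, against 2554 to 3859 CPM in OC controls, with 6, 4 and 6 called lower. Of 14 Bowman's gland genes, 3 were called lower in each OC comparison and 1 higher with octanal, with sums of 3646 to 8362 CPM, 3599 to 6316 CPM and 3144 to 7796 CPM, against 3065 to 52359.5 CPM in OC controls. The part of these transcripts in the values of the 10 genes was not tested.

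**Figure D3:**
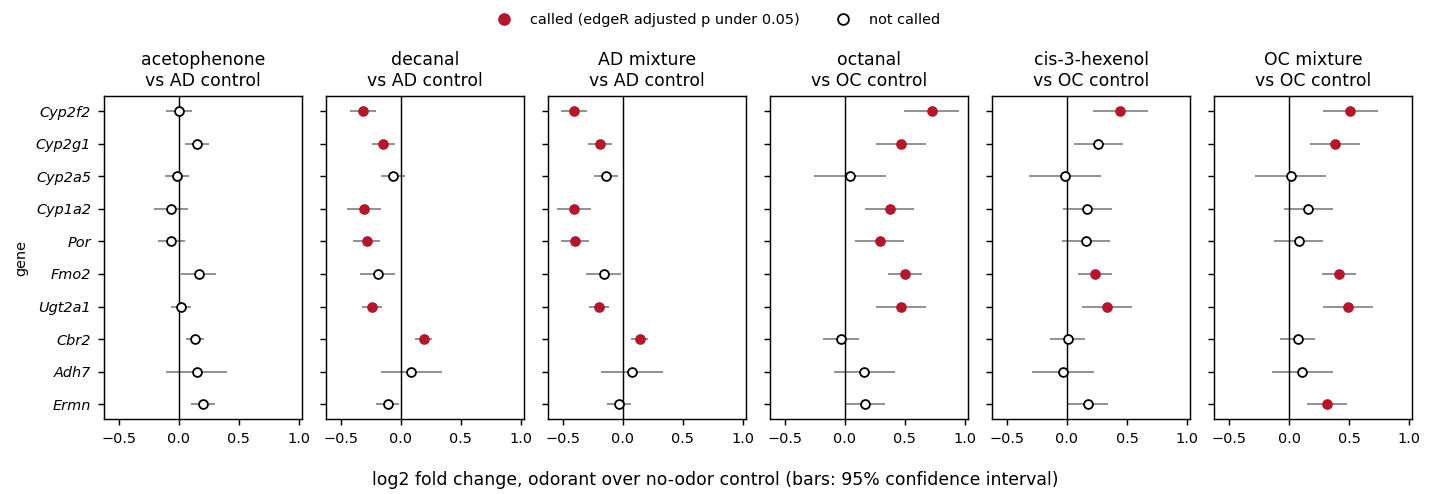
Log2 fold change (x axis) of each of the 10 genes (y axis) in 6 comparisons with the control of the same table. Points are the edgeR estimates, filled where called at an adjusted p under 0.05, and bars are 95% confidence intervals. Called genes lie left of 0 for decanal and the AD mixture, except Cbr2, and right of 0 for octanal, cis-3-hexenol and the OC mixture.

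Exposures were also set against each other within a table, in 6 comparisons and 60 tests of the 10 genes, of which 14 were called. Decanal against acetophenone called 27.0% of all genes (14.4% lower and 12.6% higher) and 7 of the 10, all lower. Fmo2 stood at 131, 129 and 111 CPM with decanal and 157, 161 and 157 CPM with acetophenone, without overlap, and had the largest change, a log2 change of -0.36 (SE 0.069, adjusted p = 0.00133). Cyp2f2 followed at -0.32 (SE 0.051, adjusted p = 0.000331) and Ermn at -0.31 (SE 0.046, adjusted p = 0.000181). Cyp2g1 (-0.30), Ugt2a1 (-0.26), Cyp1a2 (-0.24) and Por (-0.22) were lower too. Cbr2 differed by 0.055 (95% interval -0.017 to 0.13), Adh7 by -0.06 (-0.32 to 0.20) and Cyp2a5 by -0.05 (-0.15 to 0.051), none called.

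The AD mixture against acetophenone called 25.3% of all genes (13.8% lower and 11.6% higher) and 7 of the 10, all lower, led by Cyp2f2 at -0.41 (SE 0.051, adjusted p = 4.6e-05), Cyp2g1 at -0.34 (SE 0.046, adjusted p = 7.61e-05) and Por at -0.33 (SE 0.053, adjusted p = 0.000316). The AD mixture against decanal called no gene of the table (0.0%), with 1090 genes and 1 of the 10 at an unadjusted p under 0.05. That gene was Por, at -0.11 (95% interval -0.23 to -0.0014, adjusted p = 0.887). Cyp2f2 differed by -0.091 (-0.20 to 0.017) and Ugt2a1 by 0.043 (-0.04 to 0.13).

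Among the OC exposures edgeR called no gene (0.0%) in any of the 3 comparisons, with 2496 genes at an unadjusted p under 0.05 for cis-3-hexenol against octanal, 2447 for the OC mixture against octanal and 1187 for the OC mixture against cis-3-hexenol. Of the 10 genes 3, 2 and 1 had such a p. Cyp2f2 stood at 2768, 2622 and 2902 CPM with cis-3-hexenol and 3222, 3307 and 3521 CPM with octanal, with no overlap, and its log2 fold change of -0.28 had a 95% interval of -0.51 to -0.049 (adjusted p = 0.288). Fmo2 stood at 122, 118 and 118 CPM with cis-3-hexenol and 146, 141 and 143 CPM with octanal, likewise apart, a log2 fold change of -0.27 with an interval of -0.41 to -0.13 (adjusted p = 0.161). Ugt2a1 with the OC mixture differed from octanal by 0.02, within an interval of -0.19 to 0.23.

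Octanal and decanal are both straight-chain aldehydes that differ in chain length, and they were given at the same volume for the same time, in different batches. The difference between their effects, each against its own control, was tested in 1 fit of all 24 libraries, where 39.2% of 20018 genes were called, 18.0% higher and 21.2% lower for octanal, and the median over all genes was -0.067. It was called for 8 of the 10 genes, 7 higher for octanal and 1 lower. Cyp2f2 differed by 1.01 (SE 0.13, adjusted p = 1.53e-06) on the log2 scale, where the values within the tables were 0.72 for octanal and -0.31 for decanal. Ugt2a1 differed by 0.69 (SE 0.11, adjusted p = 3.54e-05), Fmo2 by 0.67 (SE 0.098, adjusted p = 8.92e-06) and Cyp1a2 by 0.66 (SE 0.12, adjusted p = 0.000133). Cyp2g1 differed by 0.60, Por by 0.55 and Ermn by 0.26, all higher for octanal. Cbr2 differed by -0.24 (SE 0.077, adjusted p = 0.0145), and it was not called in the fits with length and GC offsets. With those offsets the values within the tables were 0.19 for octanal and -0.046 for decanal in Cbr2, the opposite order. In Ermn they were -0.032 for octanal and -0.068 for decanal, close to each other. Cyp2a5 (0.085, 95% interval -0.25 to 0.42) and Adh7 (0.054, -0.33 to 0.44) were not called. The odorant and the batch cannot be told apart in this difference, and the red cell genes moved in opposite directions in the same libraries.

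Other enzymes of the same pathways were read from lists of gene names, and a value in brackets after an exposure is the log2 fold change of the gene against its own control. The AD comparisons share their controls, as do the OC comparisons. The counts of every list stand beside the share of all genes called, and some lie near or below it. That share was 11.4% higher and 12.5% lower with decanal, and 10.6% and 11.6% with the AD mixture. It was 14.4% and 15.0% with octanal, 5.56% and 6.65% with cis-3-hexenol, and 11.5% and 12.7% with the OC mixture. Of 16 other P450 genes tested in the AD table, 1 was lower with decanal and 5 with the AD mixture, and of 17 in OC libraries 4 were higher with octanal, 2 with cis-3-hexenol and 4 with the OC mixture, with none called the other way. Cyp3a13 fell with decanal (-0.35, adjusted p = 0.00182) and with the AD mixture (-0.30, adjusted p = 0.00464), and rose with octanal (0.48, adjusted p = 0.017). Cyp4b1, which encodes a hydroxylase of fatty acids and foreign compounds, rose with octanal (0.49, adjusted p = 0.0002), with cis-3-hexenol (0.30, adjusted p = 0.0116) and with the OC mixture (0.41, adjusted p = 0.000701). Medians of the list ran from -0.20 with the AD mixture to 0.11 with cis-3-hexenol. Without OC control replicate 3 the octanal count was 7 higher.

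Haem is built into every P450, and the list of haem synthesis enzymes and electron partners was called in both directions. Alas1, the rate-limiting enzyme of haem synthesis outside red cells, fell with decanal (-0.22, adjusted p = 0.0106) and with the AD mixture (-0.21, adjusted p = 0.0112), and rose with octanal (0.47, adjusted p = 0.00226), with cis-3-hexenol (0.37, adjusted p = 0.0237) and with the OC mixture (0.38, adjusted p = 0.00971). Fech, which inserts iron into the porphyrin, rose with octanal (0.48, adjusted p = 0.0004) and with the OC mixture (0.42, adjusted p = 0.0012). Cyb5b, a cytochrome b5 that passes electrons, fell with decanal (-0.24, adjusted p = 0.00597) and rose with octanal (0.38, adjusted p = 0.000942), whereas Cyb5a, another cytochrome b5, rose with decanal (0.35, adjusted p = 0.00398). Of 15 genes tested, 1 was higher and 2 lower with decanal, 1 and 3 with the AD mixture, 4 and 4 with octanal, 3 and 0 with cis-3-hexenol, and 3 and 1 with the OC mixture. Values of the genes called lower with octanal or the OC mixture are not given here. Medians lay between -0.090 and 0.020.

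Fmo1, a flavin monooxygenase like Fmo2, was the 1 gene called of 5 others of its family in each comparison but acetophenone. It fell with decanal (-0.29, adjusted p = 0.00355) and with the AD mixture (-0.19, adjusted p = 0.043), and rose with octanal (0.60, adjusted p = 0.000759), with cis-3-hexenol (0.34, adjusted p = 0.0408) and with the OC mixture (0.53, adjusted p = 0.00209). Of 8 other genes of glucuronidation, 3 were lower with decanal and 4 with the AD mixture, and 2, 1 and 3 were higher with octanal, cis-3-hexenol and the OC mixture. Ugt2a2, which shares sequence with Ugt2a1, fell with decanal (-0.26, adjusted p = 0.0227) and rose with octanal (0.79, adjusted p = 0.000408) and with the OC mixture (0.86, adjusted p = 0.000338). Ugdh, which makes the sugar donor of these enzymes, fell with decanal (-0.23, adjusted p = 0.0108) and rose with octanal (0.42, adjusted p = 0.00531). Medians of this list were -0.29 with decanal, -0.29 with the AD mixture, 0.37 with octanal and 0.15 with the OC mixture. The last was -0.064 without OC control replicate 1, where 1 gene was called.

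Glutathione transferases attach glutathione to reactive molecules. Of 22 tested in the AD table, 8 were higher with decanal and 6 with the AD mixture, and none was lower. Of 21 in the OC table, 3 were lower with octanal and 1 with cis-3-hexenol, and with the OC mixture 1 was higher and 1 lower. Mgst3, a membrane-bound transferase, rose with decanal (0.45, adjusted p = 0.000289) and fell with octanal (-0.38, adjusted p = 0.00474). Gstp1 rose with decanal (0.27, adjusted p = 0.00871) and fell with octanal (-0.51, adjusted p = 0.0018). Medians ran from 0.16 with decanal to -0.11 with octanal. These counts depended on the correction for transcript length and GC content. With those offsets 1 was higher and 2 lower with decanal, 1 and 2 with the AD mixture, and 3 higher and 1 lower with octanal, and the decanal median was -0.041. Mgst3 was still higher with decanal (0.23, adjusted p = 0.0191) and lower with octanal (-0.24, adjusted p = 0.0209).

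Enzymes of aldehydes and alcohols were called in both directions. Of 28 tested, 3 were higher and 3 lower with decanal, 1 and 5 with the AD mixture, 4 and 3 with octanal, 1 and 1 with cis-3-hexenol, and 2 and 1 with the OC mixture. Aldh3a2, which oxidises long-chain fatty aldehydes, fell with decanal (-0.35, adjusted p = 0.000212) and with the AD mixture (-0.39, adjusted p = 7.74e-05), and rose with octanal (0.57, adjusted p = 0.000127), with cis-3-hexenol (0.37, adjusted p = 0.00662) and with the OC mixture (0.40, adjusted p = 0.00126). Aldh2, the mitochondrial aldehyde dehydrogenase, fell with decanal (-0.22, adjusted p = 0.00363) and with the AD mixture (-0.21, adjusted p = 0.00574). Aldh1a7 rose with octanal (0.31, adjusted p = 0.0352) and with the OC mixture (0.41, adjusted p = 0.00959). The genes of this list called higher in the AD exposures or lower in the OC exposures are not named here. The octanal count was 10 higher and 0 lower without OC control replicate 3, and 3 and 5 without OC control replicate 1. Upper-quartile scaling gave 7 higher and 3 lower for decanal and 5 and 5 for the AD mixture.

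Sulfotransferases attach sulfate, and esterases and epoxide hydrolases split esters and epoxides. Of 11 sulfotransferases and enzymes of their sulfate donor, 0 were called with decanal and 2 were lower with the AD mixture. Of these 1, 0 and 2 were higher with octanal, cis-3-hexenol and the OC mixture, and Sult1b1 rose with octanal (0.32, adjusted p = 0.0126) and with the OC mixture (0.44, adjusted p = 0.00239). Papss2, which makes the sulfate donor, fell with the AD mixture (-0.24, adjusted p = 0.0288). Of 17 esterases and epoxide hydrolases, 1 was higher and 1 lower with decanal, 1 was lower with the AD mixture, and 2, 1 and 1 were higher in the OC exposures. Ephx1, the microsomal epoxide hydrolase, rose with octanal (0.30, adjusted p = 0.00695). Without OC control replicate 3 the sulfotransferases called higher numbered 5 with octanal and 6 with the OC mixture.

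Regulators of these enzymes were measured too. Ahr, the aryl hydrocarbon receptor through which Cyp1a2 can be induced, fell with decanal (-0.63, adjusted p = 0.000235) and with the AD mixture (-0.42, adjusted p = 0.004), and rose with octanal (0.51, adjusted p = 0.00245). Its partner Arnt fell with decanal (-0.24, adjusted p = 0.0191) and rose with octanal (0.45, adjusted p = 0.000766). Tiparp, a target of the receptor, fell with decanal (-0.31, adjusted p = 0.0137) and rose with octanal (0.57, adjusted p = 0.00056), with cis-3-hexenol (0.49, adjusted p = 0.00624) and with the OC mixture (0.52, adjusted p = 0.00139). Of 16 regulators tested in the AD table, 6 were lower with decanal and 4 with the AD mixture, and none was higher. With length and GC offsets 2 were lower with decanal. Of 15 in the OC table, 6 were higher and 3 lower with octanal, 2 and 3 with cis-3-hexenol, and 3 and 3 with the OC mixture. None of the regulators called lower in the OC table is named here.

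Of 10 targets of NRF2, a factor activated by oxidants and electrophiles, all were tested. With decanal 5 were lower, as were 5 with the AD mixture, and none was higher. With octanal 6 were higher and 1 lower, and with cis-3-hexenol and the OC mixture 5 were higher and 1 lower. No value is given here for the 1 called lower in each OC comparison. G6pdx, whose enzyme makes NADPH, fell with decanal (-0.36, adjusted p = 0.000522) and with the AD mixture (-0.42, adjusted p = 0.000145), and rose with octanal (0.78, adjusted p = 7.76e-05), with cis-3-hexenol (0.54, adjusted p = 0.00338) and with the OC mixture (0.60, adjusted p = 0.000245). Txnrd1, a thioredoxin reductase, fell with decanal (-0.39, adjusted p = 0.00016) and rose with octanal (0.49, adjusted p = 0.000358). Gclc, which encodes the catalytic subunit of the first enzyme of glutathione synthesis, fell with decanal (-0.34, adjusted p = 0.000789) and rose with octanal (0.50, adjusted p = 0.000669). With length and GC offsets 5 were lower with decanal and 5 were higher with octanal. With acetophenone no gene of any list was called, and the medians of the enzyme and regulator lists lay between -0.092 and 0.058.

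**Figure D4:**
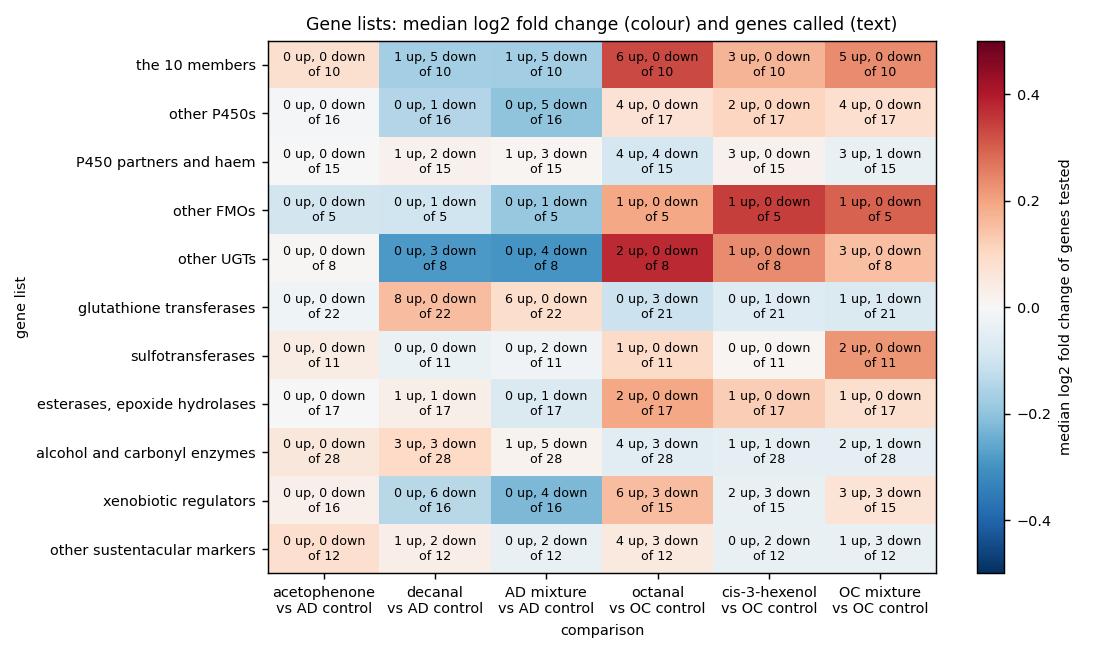
Median log2 fold change (colour) and number of genes called higher (up) or lower (down) of those tested (text in each cell), for the 10 genes and 10 lists (rows) in 6 comparisons with the control of the same table (columns). In the OC columns no gene is called lower among the 10 genes, the other P450s, the other flavin monooxygenases and the other genes of glucuronidation. The same holds for the sulfotransferases with the enzymes of their sulfate donor, and for the esterases and epoxide hydrolases.

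Other sustentacular markers were called in both directions. Of 12 tested, 1 was higher and 2 lower with decanal, 0 and 2 with the AD mixture, 4 and 3 with octanal, 0 and 2 with cis-3-hexenol, and 1 and 3 with the OC mixture, and medians lay between -0.037 and 0.083 in all 6 comparisons. Sec14l3, a lipid transfer protein, fell with decanal (-0.18, adjusted p = 0.00304) and with the AD mixture (-0.21, adjusted p = 0.000841), and rose with octanal (0.37, adjusted p = 0.00259) and with the OC mixture (0.31, adjusted p = 0.00878). The keratin gene Krt18 rose with decanal (0.20, adjusted p = 0.0127). Epas1, a hypoxia-inducible factor, fell with octanal (-0.48, adjusted p = 0.000705), and Sox2, a transcription factor of sustentacular and basal cells, fell with the OC mixture (-0.32, adjusted p = 0.00505). The list summed to 9129 to 9616 CPM with acetophenone, 7719 to 8014 CPM with decanal and 7354 to 7851 CPM with the AD mixture, against 8277 to 8417 CPM in AD controls. It summed to 8591 to 9072 CPM with octanal, against 6364 to 8549 CPM in OC controls. Sult1c1 is in this list and in that of the sulfotransferases.

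Markers of other cell types of the nose differed between the same groups. Of 11 mature sensory neuron genes 1 was higher and 5 lower with decanal, 1 and 7 with the AD mixture, 5 and 2 with octanal, 5 and 1 with cis-3-hexenol, and 6 and 1 with the OC mixture. Adcy3, the adenylyl cyclase of odorant signalling, fell with decanal (-0.40, adjusted p = 0.00135) and rose with octanal (0.57, adjusted p = 0.000664), while Gng13, a G protein subunit of these neurons, rose with decanal (0.51, adjusted p = 0.000827) and fell with octanal (-0.40, adjusted p = 0.0205). The neuronal genes summed to 19175 to 21108 CPM with decanal, against 19535 to 20951 CPM in AD controls, and to 18981 to 20263 CPM with octanal, against 20311 to 23049 CPM in OC controls. Of 5 secretory genes of respiratory epithelium tested, 2 were higher with decanal, 3 were higher with the AD mixture, 2 were lower with octanal, 0 were called with cis-3-hexenol and 1 was lower with the OC mixture. With length and GC offsets none of these 5 was called with decanal, the AD mixture or octanal. Of 14 Bowman's gland genes 2 were higher and 1 lower with decanal, and 1 and 1 with the AD mixture. Of 8 ciliated cell genes 1 was higher and 2 lower with decanal, 1 and 2 with the AD mixture, 1 and 3 with octanal, 0 and 3 with cis-3-hexenol, and 0 and 4 with the OC mixture. Their part in the values of the 10 genes was not tested.

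Across the 24 libraries, each as its log2 CPM less the mean of its own table's controls, the 10 genes fell into a group that varied together and a few that did not. As a description over libraries that share tables and groups, Pearson's r was 0.98 between Cyp1a2 and Por, 0.97 between Cyp2f2 and Ugt2a1, 0.96 between Cyp2f2 and Cyp2g1 and 0.87 between Cyp2f2 and Fmo2. Ermn had 0.85 with Ugt2a1, and Cyp2a5 reached 0.63 at most, with Cyp1a2. Cbr2 had -0.51 with Cyp1a2, -0.46 with Cyp2f2, -0.31 with Cyp2g1 and -0.029 with Cyp2a5, and Adh7 reached no more than 0.21 with any. No length and GC offsets entered these values of r. With such offsets the log2 fold changes of Cbr2 were -0.046 for decanal, -0.072 for the AD mixture and 0.19 for octanal. Those of Cyp2f2 were -0.39, -0.46 and 0.75.

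Genes most like each of the 10, among 10316 other genes with a mean of at least 10 CPM, are given with their r over the 24 libraries, of which groups and tables share many. Cyp2f2 was closest to Farsb (r = 0.98), and to G6pdx (0.98). Cyp2g1 was closest to Cops4 (0.98) and Cct4 (0.97), and Ugt2a1 to Pcca (0.98) and Idh3a (0.98), while Cyp1a2 was close to Abcd3 (0.96). Por was closest to Hid1 (0.96) and Aco1 (0.95), Fmo2 to Recql (0.96) and Abce1 (0.96), and Ermn to Uqcrc2 (0.95) and Aldh1a7 (0.94). Cyp2a5 was closest to Atp5a1 (0.93) and Acadl (0.92). Cbr2 reached 0.88 with Ccpg1os and 0.86 with Clic1, and Adh7 0.76 with Anxa8 and 0.74 with Sntn.

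**Figure D5:**
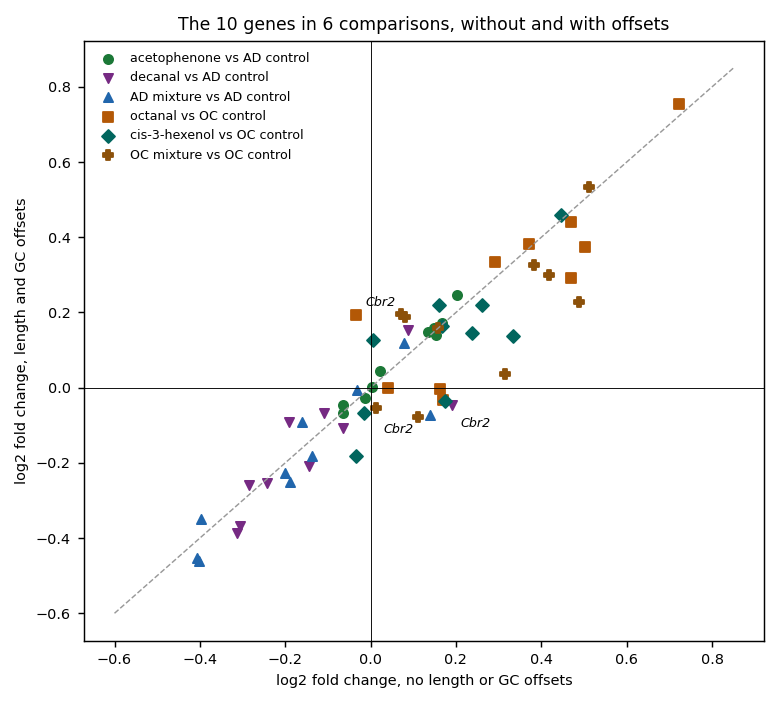
Log2 fold change of the 10 genes in the 6 comparisons with their controls, without offsets (x axis) and with loess offsets for transcript length and GC content (y axis). Points on the dashed line are equal in both fits. Cbr2, named at 3 points, lies off the line and changes sign for decanal, the AD mixture and octanal, while Cyp2f2 keeps values of -0.31 and -0.39 for decanal and 0.72 and 0.75 for octanal.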

How the data were processed

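The labels' protocols describe stranded libraries of polyadenylated RNA, read on an Illumina NovaSeq, and the submitters' processing notes name STAR 2.7.10b, Salmon 1.10.1, R 4.4.2 and the build GRCm39, with no roles or annotation release. The authors deposited expected counts per gene in 2 tables, of which 12.754% (AD) and 12.574% (OC) of values were not whole. They were rounded to whole counts. GENCODE M21 (GRCm38), joined by gene ID, gave gene symbols, the length of the longest transcript and its GC content, and named 52029 of 57010 IDs, and the IDs without a symbol held 0.313% and 0.321% of counts.

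Each table was fitted once with edgeR 4.0.16 (filterByExpr, TMM, quasi-likelihood F-test, all 12 libraries, no block), with p-values adjusted over all its genes. Confidence intervals are at 95%, and with the p-values they cover the spread between biological replicates. Summed and per-library values are TMM-scaled CPM. The alternatives were DESeq2 1.42.0 (its size factors, and its Wald test), upper-quartile factors, other filters, a replicate block, fits of the compared groups only, offsets for length and GC content, and leaving out each library.

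The 10 genes and all lists were chosen with earlier results of these data known. Besides the 10, up to 4 called genes with the smallest p per list and comparison may be named, and for each of the 10 the 2 genes most like it, of which 1 is not reported here. The promoter windows are RefSeq's. List counts under other scalings and without 2 OC controls were added after the data were seen. Methods were tested on simulated data, where 200 genes changed by larger folds than any of the 10 genes showed against its control. That test does not cover changes as small as theirs.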

Additional observations from a re-analysis of the deposited data

Results flagged for a closer look

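The octanal effect, against the OC controls, differed from the decanal effect, against the AD controls, for 8 of the 10 genes in the edgeR test of that difference over all 24 libraries. The difference on the log2 scale was 1.01 for Cyp2f2, 0.69 for Ugt2a1, 0.67 for Fmo2, 0.66 for Cyp1a2, 0.60 for Cyp2g1, 0.55 for Por and 0.26 for Ermn, all higher for octanal, and -0.24 for Cbr2, lower for octanal. In the same fit 39.2% of all genes were called, 18.0% higher and 21.2% lower. The number of the 10 called was 7 to 9 under the alternatives, and Cbr2 lost its call without the filter on low counts, with length and GC offsets and without some single libraries. With those offsets the values within the tables were 0.19 for octanal and -0.046 for decanal in Cbr2, and -0.032 and -0.068 in Ermn. Odorant and batch cannot be told apart in this difference.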

How the results depend on the processing

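The counts of the 10 genes called stayed within 1.5 times their values in all alternatives for decanal, the AD mixture and octanal. For acetophenone DESeq2's Wald test called 1. For cis-3-hexenol, 3 in the report, the count was 1 with length and GC offsets, 1 with those offsets and the replicate block, 0 in a fit of the compared groups only, and 0 to 5 when single libraries were left out. For the OC mixture, 5 in the report, the count was 3 in a fit of the compared groups only. With the replicate block alone the counts were 0 for acetophenone, 7 for decanal, 7 for the AD mixture, 6 for octanal, 3 for cis-3-hexenol and 5 for the OC mixture, 15 of 60 between exposures and 8 for octanal minus decanal. The block moved none of these counts by more than 1.5 times. Deviations of same-numbered libraries had r of -0.19 to 0.24 in AD and -0.18 to 0.12 in OC. Those of other pairs had r of -0.27 to 0.30 in AD and -0.17 to 0.19 in OC. These values cannot settle whether the numbers pair mice.

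Directions changed in these cases, and the cause was not tested. With length and GC offsets, without and with the replicate block, Cbr2 was at -0.046 and -0.046 for decanal, -0.072 and -0.072 for the AD mixture, and 0.19 and 0.19 for octanal. Ermn was at -0.032 and -0.027 for octanal and -0.035 and -0.031 for cis-3-hexenol. For the OC mixture Cyp2a5 was at -0.053 and -0.029 and Adh7 at -0.077 and -0.086. For octanal, with the offsets, Cyp2a5 was at -0.0022 and Adh7 at -0.0032. For acetophenone Cyp2f2 was at -0.0075 with upper-quartile factors, -0.0017 without a filter and -0.0051 in a fit of the compared groups only. Ermn was at 0.0070 for the AD mixture with upper-quartile factors, and Cyp2a5 at 0.0087 for cis-3-hexenol with the replicate block.

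Leaving out single libraries reversed only genes that were not called in the report. For acetophenone the ranges were -0.042 to 0.028 for Cyp2f2, -0.060 to 0.020 for Cyp2a5, -0.018 to 0.044 for Ugt2a1 and -0.00017 to 0.31 for Adh7. For octanal they were -0.14 to 0.27 for Cyp2a5 and -0.072 to 0.0083 for Cbr2. For cis-3-hexenol they were -0.20 to 0.22 for Cyp2a5, -0.031 to 0.047 for Cbr2 and -0.15 to 0.044 for Adh7. For the OC mixture they were -0.17 to 0.25 for Cyp2a5, -0.035 to 0.16 for Por and -0.032 to 0.22 for Adh7.

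Over all genes, the number called moved most for acetophenone, 1 in the report, to 302 without a filter, 30 with DESeq2 and 5 in a fit of the compared groups. For decanal, 4660 in the report, it was 3004 with the offsets and 2826 with the block added. For cis-3-hexenol, 2341 in the report, it was 1242 with the offsets (711 higher and 531 lower, where the report has 1066 and 1275), 831 with the block added, 1047 in a fit of the compared groups and 533 to 3150 without single libraries. For the OC mixture, 4647 in the report, it was 2878 with the offsets and the block, 2816 in a fit of the compared groups and 3035 to 4960 without single libraries. With 3 mice a group, precision was least for Adh7 and, in the OC table, Cyp2a5, with 95% intervals such as -0.11 to 0.41 for Adh7 with acetophenone and -0.26 to 0.34 for Cyp2a5 with octanal.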

Other observations

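Sets of genes of other cells in the tissue were read in the same fits. Mki67, a marker of dividing cells and 1 of 9 basal cell genes, rose with decanal (0.46, adjusted p = 0.0345) and with the AD mixture (0.49, adjusted p = 0.028), and fell with octanal (-0.68, adjusted p = 0.0189). It was the 1 basal cell gene called in each of these comparisons, and 2 were lower with cis-3-hexenol and 3 with the OC mixture. Of 6 ensheathing glia genes 0 were called with decanal, 2 were lower with the AD mixture, 3 were lower with octanal and 1 each with cis-3-hexenol and the OC mixture, and Fabp7, a fatty acid binding protein of these cells, fell with octanal (-0.68, adjusted p = 0.000105). Their sum was 249.9 to 277 CPM with octanal, against 326 to 383 CPM in OC controls. Of 6 immature sensory neuron genes 1 was higher and 1 lower with decanal, 3 and 1 with the AD mixture, 1 and 3 with octanal, 0 and 1 with cis-3-hexenol, and 0 and 2 with the OC mixture. Among them Dpysl5 fell with decanal (-0.69, adjusted p = 7.01e-05) and rose with octanal (0.47, adjusted p = 0.0023), and Ncam1 rose with decanal (0.18, adjusted p = 0.0359) and fell with octanal (-0.35, adjusted p = 0.00605).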
